A study of Mus musculus with 13 samples.

Results

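The S100 genes encode small calcium-binding proteins, and 10 of them, chosen by symbol, were followed through developing mouse skin: S100a3, S100a4, S100a6, S100a8, S100a9, S100a10, S100a11, S100a13, S100a14 and S100a16. They are 10 of the 17 S100 genes found by symbol among 27998 gene identifiers. The measurements are single-cell RNA sequencing libraries (10x Genomics 3′ droplet method) from C57BL/6 mice, either wild type (WT) or lacking the transcription factor gene Grhl3 in every cell (Grhl3-/-, called KO in the labels). There were 2 libraries per genotype at the embryonic days E14.5 and E16.5 and at birth (P0), called WT1, WT2, KO1 and KO2, plus 1 WT library at P0 made with the older v1 chemistry. WT and KO animals were untreated littermates, and P0 is also written E18.5/P0 in the methods.

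The embryonic libraries came from whole back skin after a short Dispase digestion and the P0 libraries from epidermis separated overnight, so age cannot be told apart from tissue and digestion. KO embryos had spina bifida, and skin was taken anterior to it. After the study's limits on genes and mitochondrial reads, 5267 to 9157 cells remained in each of the 12 replicated libraries and 5058 in the v1 library. The replicated libraries held 57270821 to 107038146 unique molecular identifiers (UMIs, tags that mark single captured transcripts) and the v1 library 49245953. The methods name 1 male and 1 female per genotype and age, but Xist and the Y-linked Ddx3y fitted this in 2 of 6 groups, and all 5 P0 libraries carried Ddx3y and almost no Xist. The 2 groups were WT at E14.5 and KO at E16.5. Both WT libraries at E16.5 carried Xist and almost no Ddx3y, and both KO libraries at E14.5 Ddx3y and almost no Xist. Sex therefore cannot be told apart from age between E16.5 and P0 in WT. Grhl3 in differentiated-like cells at P0 read 27.5 and 26.2 CPM (counts per 1000000 UMIs) in WT1 and WT2 and 8.50 and 20.2 CPM in KO1 and KO2. At E16.5 it read 36.3 and 36.1 CPM in WT against 18.8 and 12.9 CPM in KO, and at E14.5 84.8 and 109 CPM against 58.7 and 61.8 CPM. In this class KO libraries were lower at each age without reaching 0. In some other IFE classes Grhl3 overlapped: in spinous-like cells at P0 it read 16.4 and 16.1 CPM in WT and 6.98 and 25.1 CPM in KO, and in basal-like cells it overlapped at E14.5 and E16.5. It was lower in KO without overlap in granular-like cells at P0, at 36.7 and 34.5 CPM in WT and 22.75 and 12.75 CPM in KO. The same held for basal-like cells at P0 and spinous-like cells at E14.5 and E16.5. A 3′ count may lie outside the deleted part of the gene.

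Most S100 proteins work as pairs whose calcium-bound form opens a groove for a partner protein. S100A10 and S100A11 bind annexins at membranes, and S100A11 is a substrate of the cross-linked cornified envelope of the epidermis. S100A8 and S100A9 together form calprotectin, stored in large amount by neutrophils and made by keratinocytes in wounds and in psoriasis. These 10 genes lie in the epidermal differentiation complex, beside the genes of the cornified envelope.

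Classes of cells were clusters named from marker genes, with all S100 genes left out of the genes used for clustering. IFE stands for interfollicular epidermis, the skin surface between hair follicles. IFE basal-like clusters carried Krt5, Krt14 and the integrin genes of the lowest layer, spinous-like clusters Krt1 and Krt10, and granular-like clusters Lor and Flg. Spinous-like and granular-like cells together are called differentiated-like. A cluster whose markers did not name it is called by its leading genes. A myeloid cluster before birth scored for the Langerhans list through Cd74 and the other MHC class II genes, but Cd207, which defines Langerhans cells, was at 0 in it. It is called the MHC II-led myeloid cluster. At P0 the replicated libraries had no Langerhans-named class: their macrophage-like class joined a cluster led by C1q genes, with Cd207 at 3.92 CPM, and one led by MHC class II genes, with Cd207 at 29.7 CPM. The v1 library had no macrophage-like class, and its matching cluster, with Cd207 at 44.4 CPM, took the Langerhans name. The study names Langerhans cells at P0, so the name macrophage-like at that age rests on the marker scores used here. Unnamed clusters held 12.8% and 4.3% of KO cells at E14.5, against 24.2% and 20.5% in WT, and 9.50% and 9.41% of KO cells at E16.5, against 5.72% and 3.7% in WT. All levels below are CPM of the UMIs summed over the cells of a class in 1 library, and a difference is a log2 fold change ± its standard error (SE) from edgeR's quasi-likelihood test over all genes, with Benjamini-Hochberg adjusted p. The methods call the 2 libraries of a group biological replicates, and 2 against 2 libraries cannot give an exact permutation p under 0.333.

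All 10 genes lie on chromosome 3 of GRCm38, within 3050 kb. S100a13, S100a14, S100a16, S100a3, S100a4, S100a6, S100a8 and S100a9 follow each other from chr3:90514435 to chr3:90695721. S100a11 (chr3:93520488-93526287) and S100a10 (chr3:93555080-93564643) stand 2824767 bases away. S100a9 (chr3:90692632-90695721) is the one member on the minus strand and is the neighbour of S100a8 (chr3:90668978-90670035). Exons of S100a3 and S100a4 overlap the model Gm42674 on the same strand, which had 0 UMIs in all libraries.

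The sequence before each start (250 bases before to 50 after, RefSeq, GRCm38.p6) was matched for 8 members in 12 windows, and S100a10 and S100a14 are named only. The windows of S100a8 (chr3:90668821-90669120, plus strand), S100a9 (chr3:90695672-90695971, minus strand) and S100a11 (chr3:93520246-93520545, plus strand) are shown because S100a8 and S100a9 moved together between genotypes and S100a11 moved with differentiation. Capitals mark matches, on either strand, to TATAAA, to AACCNGTT (the Grainyhead-like core) and to TGANTCA (the AP-1 core, a palindrome).
S100a8: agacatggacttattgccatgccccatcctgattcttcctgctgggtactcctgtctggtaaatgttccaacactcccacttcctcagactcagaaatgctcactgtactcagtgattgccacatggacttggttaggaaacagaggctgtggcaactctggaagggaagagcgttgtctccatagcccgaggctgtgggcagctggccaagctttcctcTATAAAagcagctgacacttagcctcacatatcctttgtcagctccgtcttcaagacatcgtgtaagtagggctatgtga
S100a9: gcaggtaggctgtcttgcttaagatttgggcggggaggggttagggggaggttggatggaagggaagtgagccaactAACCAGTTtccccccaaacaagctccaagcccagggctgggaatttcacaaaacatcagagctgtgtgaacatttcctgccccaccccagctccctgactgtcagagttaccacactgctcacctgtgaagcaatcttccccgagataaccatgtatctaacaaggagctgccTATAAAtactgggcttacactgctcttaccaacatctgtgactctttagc
S100a11: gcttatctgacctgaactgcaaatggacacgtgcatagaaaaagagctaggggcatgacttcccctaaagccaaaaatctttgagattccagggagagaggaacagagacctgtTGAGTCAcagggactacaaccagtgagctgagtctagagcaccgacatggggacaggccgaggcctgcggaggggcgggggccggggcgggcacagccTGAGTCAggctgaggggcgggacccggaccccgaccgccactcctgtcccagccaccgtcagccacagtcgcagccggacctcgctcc

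TATAAA was found in 13.6% of all 32851 windows, AACCNGTT in 2.09% and TGANTCA in 7.81%. In the S100a8 window TATAAA ends 25 bases before the start, and the S100a4 window holds it at a like place, ending 26 bases before. In the S100a9 window TATAAA covers bases 1 to 6 from the annotated start itself, and in a window of S100a3 it lies 52 to 47 bases before. The S100a9 window holds AACCAGTT from 173 to 166 bases before the start. One of the 4 windows of S100a3 holds the Grainyhead-like core on the opposite strand, 113 to 106 bases before the start. The AP-1 core stands at 2 places in the S100a11 window and at 1 in a window of S100a16. A match describes letters only, and no binding was measured here.

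S100a14, whose protein has lost calcium-binding residues in one of its loops, was a keratinocyte transcript. In WT skin at E14.5 it stood at 666 ± 56.5 CPM (mean ± SD, n = 2 libraries here and below) in spinous-like cells and at 33.0 ± 8.61 CPM in basal-like cells, and the next class, muscle-like cells, had 3.48 ± 0.182 CPM. At E16.5 granular-like cells led with 1237 ± 154 CPM, before spinous-like cells with 1090 ± 8.48 CPM, basal-like cells with 645 ± 2.19 CPM and hair follicle-like cells with 457 ± 8.77 CPM, none of which overlapped. The granular-like WT cells at E16.5, 48 and 45 in number, differed between libraries for other members, with S100a6 at 924 and 143 CPM and S100a13 at 114 and 16.4 CPM. At P0 the cluster led by Krt6a, sebaceous-like, upper hair follicle-like, granular-like and spinous-like cells had means from 846 to 940 CPM with overlapping libraries. Over 42 WT class-by-age points, which share libraries and depth, the genes most like it were those of the desmosomes and keratinocytes: Dsp (r = 0.98), Perp (r = 0.97) and Serpinb5 (r = 0.97).

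S100a16, a widely expressed member, was shared by keratinocytes and vessels. At E14.5 spinous-like cells had 1042 ± 123 CPM, endothelial-like cells 841 ± 90.8 CPM and Schwann-like cells 387 ± 42.9 CPM, in this order without overlap, while basal-like cells had 106 ± 1.34 CPM. At E16.5 spinous-like cells had 1117 ± 22.6 CPM and endothelial-like cells 982 ± 18.0 CPM. The cluster led by Krt6a, granular-like and spinous-like cells at P0 did not differ beyond their spread, with means from 669 to 709 CPM. Its closest genes were Ablim1 (r = 0.80), Evpl and Jup (r = 0.75 each), and its r with S100a14 was 0.67.

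S100a11 and S100a10, the annexin partners, were high in nearly every class. S100a11 was highest in spinous-like cells at each age, with 1971 ± 98.99, 2631 ± 1.41 and 2423 ± 9.90 CPM. Pericyte-like cells came next at E16.5 with 2054 ± 75.7 CPM and the cluster led by Krt6a at P0 with 2325 ± 122 CPM. S100a10 was led by the dermis before birth, with 1369 ± 98.99 CPM in fibroblast-like cells at E14.5 and 1830 ± 33.9 CPM in dermal condensate-like cells at E16.5, and by the cluster led by Krt6a at P0, with 1414 ± 253 CPM. Anxa2, whose protein pairs with S100A10, was the gene most like both (r = 0.79 with each).

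S100a6, which binds the ubiquitin ligase adaptor encoded by Cacybp, and S100a4, which binds non-muscle myosin, were highest in immune classes, S100a6 also in dermal ones. T cell-like cells at P0 had the highest S100a4 level, 1790 and 2455 CPM in WT1 and WT2, 2444 and 2631 CPM in KO1 and KO2 and 1789 CPM in the v1 library. In T cell-like cells of WT1 and WT2 thinned to 2000 UMIs per cell, 88.7% and 97.9% had a UMI of S100a4, against 0.2% to 3.4% of basal-like cells over all libraries. T cell-like cells, 0.917% and 1.44% of WT cells at P0, gave 51.7% and 50.9% of all S100a4 UMIs of these libraries. Before birth S100a4 was highest in the MHC II-led myeloid cluster, at 229 ± 44.7 CPM and then 536 ± 25.2 CPM. S100a6 was led by the same classes, with 597 ± 19.3 CPM and 1613 ± 97.6 CPM in that cluster before birth and 2980 ± 489 CPM in T cell-like cells at P0, and its r with S100a4 was 0.77. Below the top the orders differed at P0: S100a4 was next highest in macrophage-like cells, at 274 ± 131 CPM, while for S100a6 these cells, at 306 ± 144 CPM, came after Merkel-like cells with 1144 ± 499 CPM and upper hair follicle-like cells with 630.5 ± 68.0 CPM, and overlapped hair follicle-like cells with 325 ± 23.9 CPM. Dermal condensate-like cells, at 1564 ± 139 CPM, overlapped the myeloid cluster for S100a6 at E16.5.

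S100a13, linked to the release of cytokines that lack a signal peptide, was spread over immune and vessel classes. Macrophage-, mast cell- and endothelial-like cells led at E14.5 with 169 ± 8.70, 154 ± 15.6 and 154 ± 9.26 CPM. Mast cell-like cells overlapped both other classes, and macrophage-like libraries were above endothelial-like ones. At E16.5 mast cell-like cells had 280 ± 3.54 CPM and endothelial-like cells 249 ± 4.74 CPM, and at P0 T cell-like cells had 303 ± 14.6 CPM. S100a3, known from the hair cuticle, stood apart: at P0 it was highest in a cluster led by Krt35 and Msx1, hair shaft genes, with 144 and 56.9 CPM in WT and 180 and 140 CPM in KO. Inner root sheath-like cells followed with 23.6 and 24.4 CPM in WT, and basal-like cells had 8.32 ± 4.54 CPM. With cells thinned to 2000 UMIs, 12.7% and 10.3% of the WT cells led by Krt35 and 22.8% and 18.6% of the KO cells had a UMI of S100a3, against 0% to 1.05% of T cell-like cells at P0. Without thinning these shares were 29.1%, 27.6%, 51.2% and 41.1%. Mt4 (r = 0.81), Krt28 (r = 0.76) and Krt35 (r = 0.75) were most like S100a3, although S100a3 itself lay under the level of 20 CPM set for this search.

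**Figure D1:**
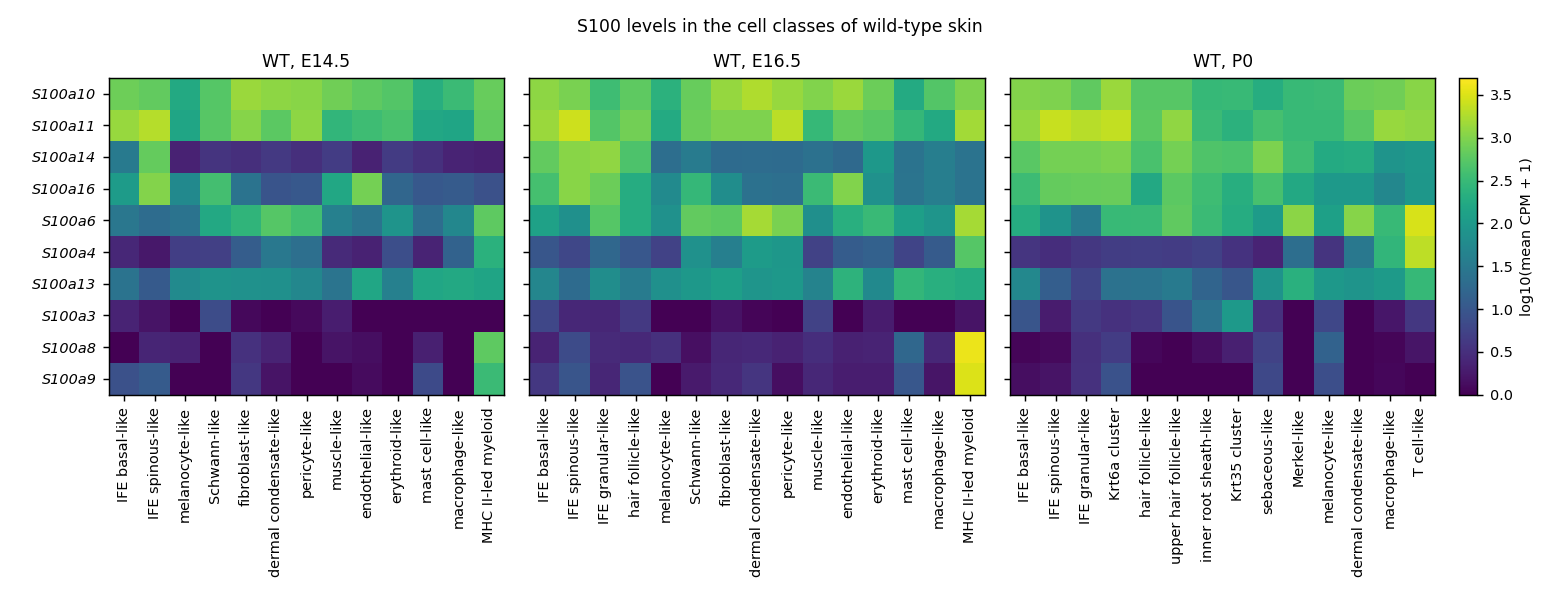
Levels of the 10 S100 genes (rows) in WT classes of cells (columns) at E14.5, E16.5 and P0, as log10 of the mean CPM of 2 libraries plus 1. S100a11 and S100a10 are high in nearly every column, S100a14 in the keratinocyte columns, S100a4 in T cell-like cells at P0 and S100a8 and S100a9 in the MHC II-led myeloid column before birth.

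Before birth the mean WT level of S100a8 and S100a9 was highest in a myeloid cluster, though not of S100a9 in every library. In the MHC II-led myeloid cluster S100a8 read 1151 and 46.2 CPM in WT1 and WT2 and 431 and 734 CPM in KO1 and KO2 at E14.5, and S100a9 664, 2.01, 224 and 344 CPM. For S100a9 the cluster of WT2 lay under spinous-like cells, with 15.5 CPM, and that of KO2 under erythroid-like cells, with 864 CPM. At E16.5 S100a8 read 4565, 3355, 1491 and 5604 CPM, and S100a9 read 3599, 2766, 582 and 2663 CPM. S100a8 overlapped between WT and KO at both ages, while both KO libraries were below both WT libraries for S100a9 at E16.5, a difference that was not tested in this small cluster. In WT at E16.5 this cluster, 1.47% and 1.34% of the cells, held 92.6% and 97.6% of all S100a8 UMIs, and the next class had 16.3 CPM. At E14.5 it held 83.1% and 60.5% of the S100a8 UMIs, but of the 90 S100a9 UMIs of WT2 at that age 60.0% lay in spinous-like cells. Ngp, Camp and the other neutrophil markers summed to 393 CPM in the cluster at E14.5 and 1542 CPM at E16.5. In WT1 and WT2 at E16.5, 14 and 9 of its cells had 10 or more UMIs of S100a8 and S100a9, 6 and 4 of them with at least 3 of 11 neutrophil markers and none with Cd207. Over WT classes S100a8 and S100a9 were most like each other (r = 0.92), then Gm5483 (r = 0.90 and 0.87) and the neutrophil granule gene Ngp (r = 0.74 and 0.69).

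At P0 the myeloid source was not seen in WT epidermis: the highest WT class for S100a8 was melanocyte-like cells with 13.5 ± 8.98 CPM, and the matching MHC II class of the v1 library had 0 UMIs of both genes. A single cell can carry these genes. At P0, 1623 of the 1634 UMIs of both genes in macrophage-like cells of KO2 came from 1 cell, at E14.5, 1372 of 1373 UMIs in erythroid-like cells of KO2 came from 1 cell, and in Schwann-like cells of KO2 at E16.5 it was 710 of 720.

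The age comparison asks how the members changed in WT keratinocytes before birth. In basal-like cells S100a14 rose most, from 39.1 and 26.9 CPM at E14.5 to 643 and 647 CPM at E16.5, a difference of 4.39 ± 0.17 or 21.0-fold (edgeR, adjusted p = 2.06e-12). S100a16 rose from 105 and 107 CPM to 412 and 398 CPM, by 2.01 ± 0.12 or 4.02-fold (adjusted p = 1.97e-10). S100a6 rose from 37.2 and 20.3 CPM to 140 and 121 CPM (2.32 ± 0.30, adjusted p = 0.000951). For these 3 genes the 2 ages were far apart in every library.

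S100a4 rose from 0.483 and 2.72 CPM to 10.2 and 7.47 CPM (2.34 ± 0.44, adjusted p = 0.000748), S100a13 from 31.9 and 17.8 CPM to 49.0 and 48.3 CPM (1.10 ± 0.21, adjusted p = 0.00103) and S100a10 from 776 and 753 CPM to 1142 and 1230 CPM (0.71 ± 0.11, adjusted p = 0.000109). Without WT2 at E14.5 the S100a13 call was lost, at 0.67, and the S100a4 difference was 4.20, while without WT1 at E14.5 the S100a4 difference was 1.78. S100a11 was level, with 1405 and 1312 CPM before and 1380 and 1421 CPM after (0.12 ± 0.11, adjusted p = 0.515). In all, 6 of 10 members were higher, where edgeR called 8.78% of 12567 genes higher, and the median difference was 2.03 over the members and 0.0 over all genes. Each library left out in turn gave 5 to 7 member calls. Outside keratinocytes mean WT S100a4 went from 11.4 to 38.8 CPM in fibroblast-like and from 1.23 to 11.1 CPM in endothelial-like cells between these ages. In macrophage-like cells it went from 13.55 to 10.6 CPM. Mean S100a6 went from 25.8 to 216.5 CPM in endothelial-like and from 19.75 to 122.6 CPM in mast cell-like cells.

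From E16.5 to P0 the members parted from this course. S100a14 in basal-like cells was at 486 and 630 CPM, S100a16 at 346 and 339 CPM and S100a6 at 178 and 213 CPM, none of them past the threshold. S100a4 fell to 2.40 and 3.17 CPM (-1.63 ± 0.32, adjusted p = 0.000172) and S100a9 from 4.29 and 1.73 CPM to 0.36 and 0.366 CPM (-2.94 ± 0.64, adjusted p = 0.000514). These were 2 of 10 members, where 60.6% of all genes were called, and the median was -0.18 over the members and 0.051 over all genes. This step also went from whole skin to epidermis, and from WT libraries with Xist (1310 and 1160 CPM) to WT libraries with Ddx3y. Basal-like S100a9 at E16.5, 3.01 ± 1.81 CPM, stood near classes outside the epithelium, with 2.72 CPM in dermal condensate-like, 1.65 CPM in fibroblast-like and 0.38 CPM in pericyte-like cells. The MHC II-led myeloid cluster had 3182 CPM. Its part in the basal-like level was not tested.

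In differentiated-like cells the rise of S100a14 between E14.5 and E16.5 was smaller, from 626 and 706 CPM to 1122 and 1088 CPM (0.94 ± 0.14, adjusted p = 0.000425), a call kept without each library. S100a4, S100a6, S100a10 and S100a11 also rose, by 3.27, 2.83, 0.60 and 0.50, making 5 of 10 members where 19.1% of genes were called. S100a11 lost its call without any one of the 4 libraries, S100a6 without 3 of them and S100a4 and S100a10 without WT2 at E14.5, and the number of member calls ranged from 1 to 5. The class held no granular-like cells at E14.5. In spinous-like cells alone S100a6 stood at 19.7 ± 10.3 CPM at E14.5 and 71.3 ± 26.6 CPM at E16.5 and was not called. S100a13 was called there in its place, where 20.3% of genes were called. From E16.5 to P0 S100a13 and S100a16 fell in differentiated-like cells (-1.33 and -0.46, adjusted p = 0.0210 and 0.0122), 2 of 10 members where 47.3% of genes were called. The makeup of the class changed with age, from 48 and 45 granular-like cells beside 404 and 535 spinous-like cells at E16.5 to 272 and 297 beside 368 and 410 at P0, and in spinous-like cells alone S100a13 was at -0.56 ± 0.30 (adjusted p = 0.14) and S100a16 at -0.66 (adjusted p = 0.000277). In differentiated-like cells both lost the call in 3 of the 4 fits that left out a library.

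**Figure D2:**
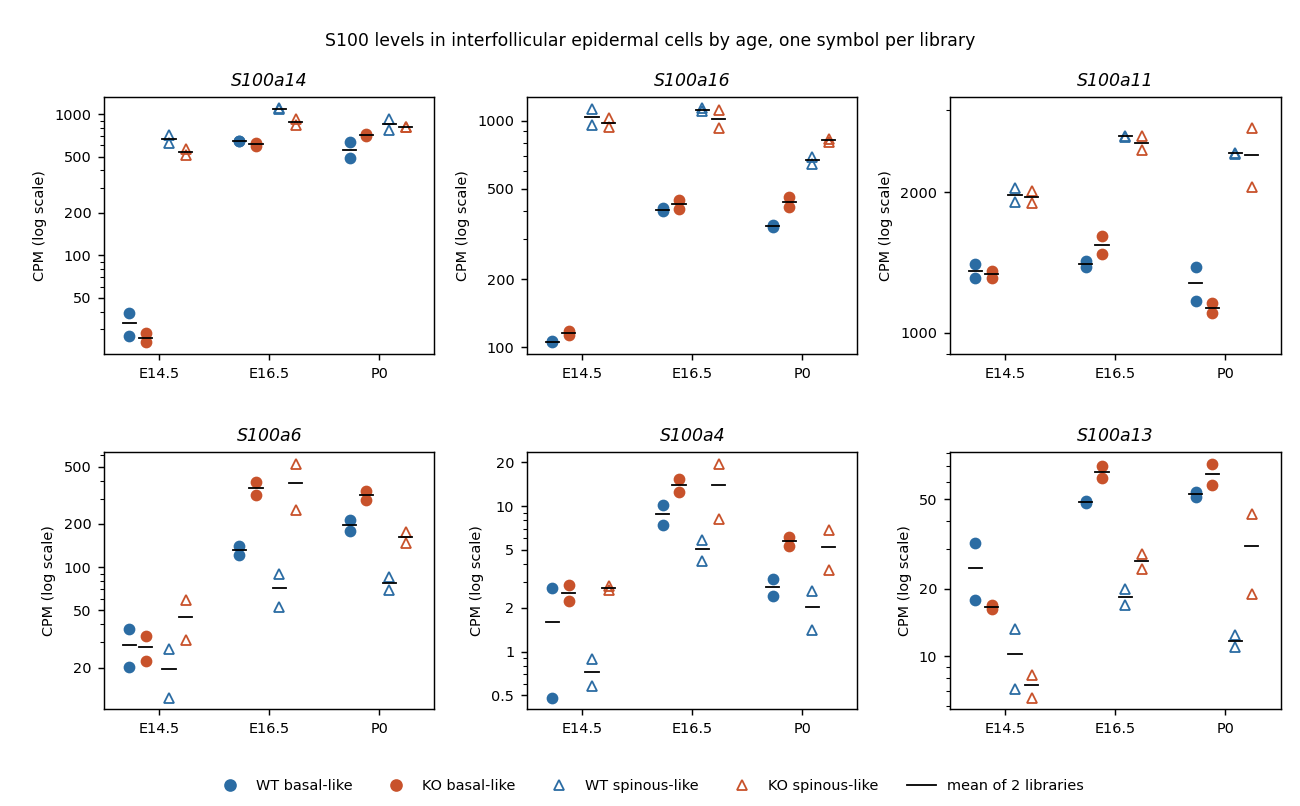
CPM (log axis) of 6 members in basal-like and spinous-like IFE cells at E14.5, E16.5 and P0, 1 point per library, with a bar at the mean of 2. S100a14 in basal-like cells rises from 39.1 and 26.9 CPM at E14.5 to 643 and 647 CPM at E16.5 in WT, and KO points lie beside it.

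The stage comparison asks what changes as a keratinocyte leaves the basal layer, within the same libraries. At E14.5 S100a14 was 4.42 ± 0.15 or 21.3-fold higher in differentiated-like than in basal-like cells of WT (adjusted p = 1.61e-17), and S100a16, at 956 and 1129 CPM against 105 and 107 CPM, was 3.34 ± 0.12 or 10.1-fold higher (adjusted p = 1.16e-16). By E16.5, when the basal level had come up, the stage difference was 0.95 for S100a14 and 1.58 for S100a16, and at P0 it was 1.03 and 1.42. Both were called at all 3 ages, with and without each library.

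S100a11 rose with differentiation at each age, by 0.58, 0.96 and 1.20, and at P0 from 1384 and 1168 CPM to 2139 and 2232 CPM (adjusted p = 1.16e-06). At E14.5 this call was lost without either WT library. S100a13 went the other way. At P0 it fell from 54.1 and 51.2 CPM in basal-like cells to 7.74 and 8.12 CPM in differentiated-like cells, a 4.94-fold lower level (-2.30 ± 0.18, adjusted p = 5.34e-10), after -1.24 at E14.5 and -0.94 at E16.5. The E14.5 call was lost without either WT library and the E16.5 call without WT2. S100a3 was lower by 1.52 on the log2 scale at E16.5 and 1.37 at P0, S100a10 by 0.32 at E16.5 and S100a6 by 1.5 at P0, calls that were lost without 1 library or more.

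S100a8 was called higher in differentiated-like WT cells at E16.5 (2.09, adjusted p = 0.00153) and at P0 (adjusted p = 0.00348), from low levels. At P0 basal-like cells of WT1 and WT2 held 2 UMIs in all, too few for a fold, and differentiated-like cells 22. At E16.5 the levels were 10.3 and 0.715 CPM in WT1 and WT2 against 1.94 and 0.690 CPM in basal-like cells, and 1 spinous-like cell of WT1 with neutrophil markers held 112 of its 129 UMIs of S100a8 and S100a9. Without cells that carried at least 3 neutrophil markers the E16.5 difference was 0.17 ± 0.51 (adjusted p = 0.81), and without WT1 it was 0.25 (adjusted p = 0.875). The P0 call was lost without WT1. Members called were 4 of 10 at E14.5, where 31.0% of genes were called, 7 of 10 at E16.5 against 49.2% and 7 of 10 at P0 against 61.6%.

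The order of IFE-like cells at P0 was read by diffusion pseudotime in each library, computed without the S100 genes, in 10 bins. S100a11 peaked before the end in WT, at 2478 CPM in bin 7 of WT1 and 2533 CPM in bin 8 of WT2, and was at 370 and 502 CPM in the last bin, which held 22 and 26 cells. In KO1 and KO2 the last bin, with 50 and 137 cells, was the highest, at 3190 and 4258 CPM. The late fall of S100a11 in WT was smaller when cells were ranked on the first principal component, where the last bin had 1563 and 1821 CPM, and the v1 library peaked at 3697 CPM in bin 7 and ended at 2471 CPM. S100a13 in WT1 went from 64.8 CPM in the first bin, its highest, to 2.37 CPM in the last. In WT2 it was at 21.7 CPM in the first bin, highest at 55.2 CPM in bin 4 and at 4.01 CPM in the last. S100a10 ended at 109 and 93.4 CPM in WT and at 874 and 852 CPM in KO, and S100a8 at 0 UMIs in both WT libraries and 123 and 264 CPM in KO. The order followed Krt10 less Krt14 with r = 0.89 and 0.85 across the cells of WT1 and WT2, but 0.39 and 0.77 in KO1 and KO2, so equal bins do not stand for equal stages in the genotypes. No test was run on these bins.

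**Figure D3:**
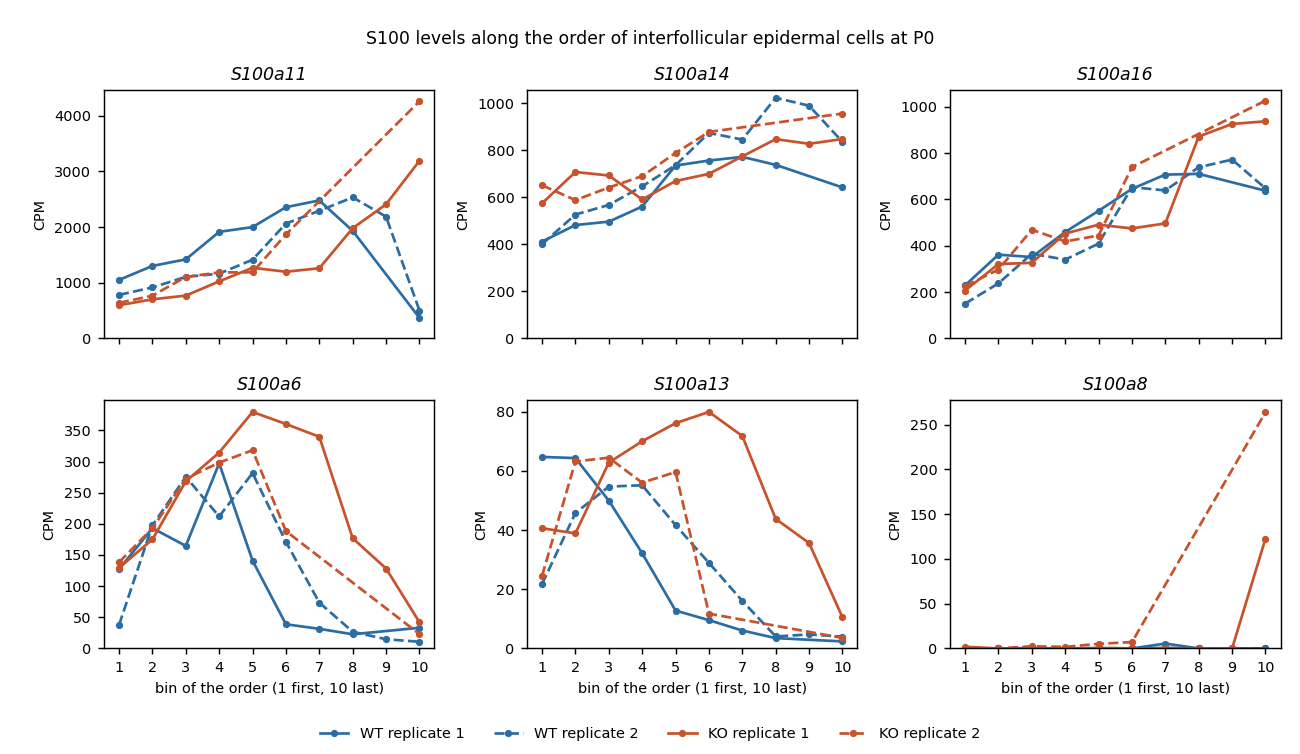
CPM of 6 members by bin of the pseudotime order of IFE-like cells at P0, 1 line for each of the 4 replicated libraries, for bins with at least 20 cells. S100a11 falls in the last WT bins to 370 and 502 CPM and ends at 3190 and 4258 CPM in KO.

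The genotype comparison asks what changed in the KO at each age. In basal-like cells at E14.5 edgeR called 0 of 10 members (2 at an unadjusted p under 0.05, and 0 by DESeq2), where 0.00796% of genes were called and the members' median was -0.10. At E16.5 it also called 0 of 10 (2 at an unadjusted p under 0.05, and 1 by DESeq2), where 0.422% of genes were called, with a median of 0.51 over the members and -0.004 over all genes. S100a6 had the largest value there, 140 and 121 CPM in WT against 319 and 394 CPM in KO (1.41 ± 0.24, 2.65-fold, adjusted p = 0.0696). Its KO libraries lay above both WT libraries, and 6 alternatives named in the closing section put it past the threshold.

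At P0 edgeR called 2 of 10 members in basal-like cells, where 36.7% of genes were called, and the median was 0.34 over the members and -0.007 over all genes. S100a16 rose from 346 and 339 CPM to 461 and 416 CPM (0.34 ± 0.11, adjusted p = 0.0161) and S100a4 from 2.40 and 3.17 CPM to 5.33 and 6.16 CPM (1.01 ± 0.32, 2.02-fold, adjusted p = 0.0183). S100a6 had 178 and 213 CPM in WT and 338 and 293 CPM in KO (0.68 ± 0.24, adjusted p = 0.052), and S100a14 486 and 630 CPM against 704 and 726 CPM (0.34, adjusted p = 0.0655). For all 4 genes both KO libraries were above both WT libraries. S100a4 lost its call without WT1 and S100a16 without KO1. In other classes mean S100a4 read 2.01 CPM in WT and 5.24 CPM in KO in spinous-like, 2.63 and 5.20 CPM in melanocyte-like and 3.54 and 9.60 CPM in upper hair follicle-like cells. It was lower in KO in granular-like cells (3.05 and 0.58 CPM) and inner root sheath-like cells (4.20 and 3.96 CPM). T cell-like cells had 2122 and 2538 CPM, and their part in the basal-like level was not tested. The KO effect at P0 against that at E16.5 was called for 0 of 10 members by edgeR, with 1 at an unadjusted p under 0.05 and 0 by DESeq2, where 14.6% of genes were called.

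In differentiated-like cells at E14.5 edgeR called 0 of 10 members (3 at an unadjusted p under 0.05, and 0 by DESeq2), where 1.4% of genes were called. At E16.5 it called 1 of 10 members (7 at an unadjusted p under 0.05), where 2.49% of genes were called. This was S100a10, which went from 830 and 854 CPM in WT to 1169 and 1328 CPM in KO (0.51 ± 0.12, adjusted p = 0.0341). That call was lost without any one of the 4 libraries, with adjusted p up to 0.256. The class held 48 and 45 granular-like cells in WT1 and WT2 and 5 and 4 in KO1 and KO2, and in spinous-like cells alone S100a10 was not called, at 865 and 924 CPM in WT and 1140 and 1339 CPM in KO (0.43 ± 0.11, adjusted p = 0.0726). Mean S100a6 in spinous-like cells read 71.3 CPM in WT and 387 CPM in KO, S100a4 5.04 and 13.9 CPM and S100a3 1.56 and 5.86 CPM. Mean S100a14 (1090 and 879 CPM), S100a11 (2631 and 2550 CPM) and S100a16 (1117 and 1022 CPM) were lower in KO. None of these was called there. In differentiated-like cells the median was 0.81 over the members and 0.008 over all genes. The KO effect at P0 against that at E16.5 was called for 0 of 10 members by edgeR, with 2 at an unadjusted p under 0.05 and 0 by DESeq2, where 6.96% of genes were called.

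At P0 edgeR called 3 of 10 members in differentiated-like cells, where 29.6% of genes were called, and the median was 0.55 over the members and 0.008 over all genes. S100a13 stood at 7.74 and 8.12 CPM in WT and 40.1 and 12.9 CPM in KO (1.70 ± 0.43, 3.24-fold, adjusted p = 0.0138). The 2 KO libraries differed from each other by more than KO2 did from WT. The basal marker list, 8 genes such as Krt5 and Krt14, summed to 3820 and 3981 CPM in this class in WT and to 24510 and 8683 CPM in KO, with KO1 high as for S100a13, and its part in the result was not tested. In spinous-like cells alone, a setting chosen after the data were seen, S100a13 had 11 and 12.5 CPM in WT and 43.1 and 19.0 CPM in KO (1.45 ± 0.31, adjusted p = 0.00355, where 22.8% of genes were called). S100a3 was also called there, at 1.41 and 0.403 CPM against 4.55 and 3.80 CPM (2.27 ± 0.69, adjusted p = 0.0261). Without KO1 the S100a13 difference in differentiated-like cells was 0.66 and no longer called, and the call was also lost without either WT library.

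**Figure D4:**
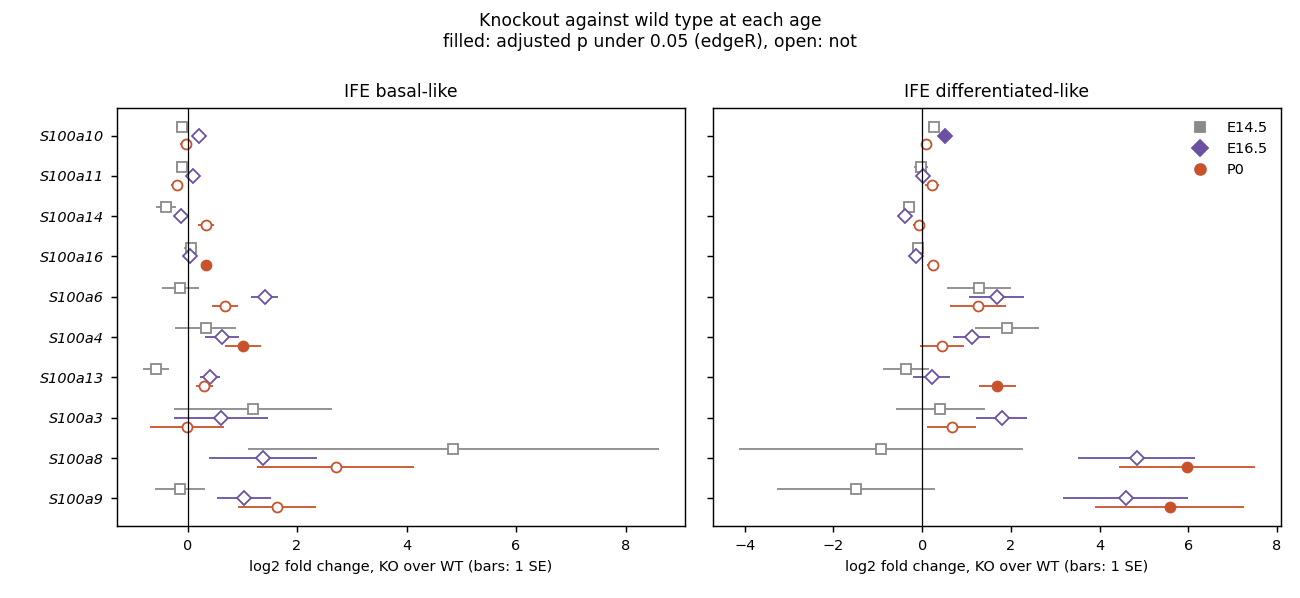
Log2 fold change of KO over WT ± 1 SE for each member in basal-like and differentiated-like cells at 3 ages, with filled points for adjusted p under 0.05 (edgeR). The members' median lies at -0.10 in basal-like and -0.06 in differentiated-like cells at E14.5. It is 0.51 and 0.81 at E16.5 and 0.34 and 0.55 at P0. S100a8 and S100a9 in differentiated-like cells at E16.5 and P0 lie far above 0, with wide bars. S100a8 in basal-like cells at E14.5 does too, from 0 UMIs in WT and 6 in KO, too few for a fold.

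Among the members, S100a8 and S100a9 had the largest KO differences in differentiated-like cells at E16.5 and P0. At P0 S100a8 read 2.41 and 0.271 CPM in WT and 19.2 and 142 CPM in KO (5.96 ± 1.53, 62.3-fold, adjusted p = 0.0302), and S100a9 2.92 and 0.180 CPM against 11.3 and 131 CPM (5.58 ± 1.67, adjusted p = 0.050). Both KO libraries were above both WT libraries, and KO2 was several times KO1. Both calls were lost without WT1, WT2 or KO2, with differences of 3.81 to 8.03 for S100a8 and 2.85 to 8.37 for S100a9 over the libraries left out. Both were also lost without cells with neutrophil markers (adjusted p = 0.07 and 0.0928), without integration (0.0983 and 0.233), with the replicate block (0.136 and 0.211), with the P0 libraries alone (0.19 and 0.256) and in spinous-like cells alone (0.568 and 0.962). The makeup of this class differed. It held 272 and 297 granular-like cells beside 368 and 410 spinous-like cells in WT1 and WT2, and 27 and 101 beside 324 and 133 in KO1 and KO2.

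Within granular-like cells at P0 S100a8 read 4.15 and 0.327 CPM in WT and 193 and 352 CPM in KO (7.13 ± 0.92, adjusted p = 0.0111), and S100a9 4.38 and 0.327 CPM against 111 and 329 CPM (6.79 ± 1.0, adjusted p = 0.0206). These were 2 of the 8 members tested there, where 3.19% of 6713 genes were called, and both calls were lost without KO2. Granular-like cells were added to the tests after the data were seen, and the adjusted p does not account for that choice. In spinous-like cells at P0 S100a8 was low in both genotypes, 0.282 and 0.201 CPM in WT and 0.607 and 4.56 CPM in KO. Granular-like KO cells with 10 or more UMIs of the pair numbered 2 of 27 and 9 of 101, held 107 of 107 and 570 of 588 of the class's UMIs of the pair, and none had 3 neutrophil markers. WT granular-like cells of WT1 and WT2 held 37 and 4 UMIs of the pair and no such cell. The granular marker list summed to 9319 and 8460 CPM in WT granular-like cells and to 1044 and 1600 CPM in KO, and its part in the result was not tested. Neutrophil markers summed to 0.692 and 0.98 CPM in WT and 0 and 1.16 CPM in KO.

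The cluster led by Krt6a and Krt6b, keratins of wounded and stressed epidermis, held 71 and 44 cells in WT and 159 and 175 in KO and was left unnamed by its markers. It was added to the tests after the data were seen, and its adjusted p does not account for that choice. S100a8 read 5.38 and 1.60 CPM in WT against 221 and 126 CPM in KO, 6 UMIs in all against 1188 (5.55 ± 0.48, 46.7-fold, adjusted p = 1.59e-05), and S100a9 11.8 and 3.20 CPM against 282 and 201 CPM (4.93 ± 0.38, 30.6-fold, adjusted p = 4.5e-06). They were 2 of 8 members tested, where 17.8% of 8861 genes were called. Over the libraries left out in turn the difference was 5.07 to 6.78 for S100a8 and 4.42 to 6.29 for S100a9. These fits left a genotype without a replicate, so they cannot show whether the calls hold without a library.

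The pair was found in a minority of these cells. With each cell thinned to 2000 UMIs, 8.18% (95% exact binomial interval 4.43 to 13.6) and 8.0% of KO1 and KO2 cells had a UMI of S100a8, and 14.47% (9.40 to 20.9) and 15.4% (10.4 to 21.7) had one of S100a9. In WT1 and WT2 a UMI of S100a8 was seen in 0% of cells, which allows up to 5.06% and 8.04% of cells with a UMI at this thinned depth and sets no limit on cells that express the gene, and T cell-like cells at P0 had 0% to 1.05%. The intervals cover counting error only. Without thinning S100a8 was in 26.4% and 23.4% of KO cells and 4.23% and 2.27% of WT cells, and KO cells were deeper, with medians of 18407 and 21964 UMIs against 10363 and 12438.5. In KO1 and KO2, 18 and 22 cells with 10 or more UMIs of the pair held 1489 of 1619 and 1108 of 1241 of its UMIs, and none of these cells had 3 neutrophil markers. The highest single cell held 393 UMIs in KO1 and 312 in KO2.

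Other lists moved with the genotype in the cluster led by Krt6a. The periderm list summed to 135 and 683 CPM in WT and to 1316 and 3379 CPM in KO, and the dissociation stress list to 3430 and 3793 CPM in WT and to 6910 and 7657 CPM in KO, with 11 of 16 of its genes called higher and none lower, where 17.8% of all genes were called. The neutrophil list summed to 0 and 3.20 CPM in WT and 4.03 and 1.58 CPM in KO. The parts of the periderm and stress lists in the result were not tested. Of 18 alarmin and wound keratinocyte genes 7 were higher and 1 lower in KO (median 1.85, against the same 17.8% of all genes called), among them Serpinb3a (4.69), Sprr2a1 (0 UMIs in both WT libraries, 72 and 99 in KO) and Sprr2a2 (0 and 1 UMIs against 40 and 54). The periderm list holds Krt6a, and the alarmin and wound list holds Krt6a and Krt6b, the genes that lead this cluster. Their part in these sums and counts was not tested. S100a6 in this cluster read 158 and 470 CPM in WT and 681 and 1094 CPM in KO (1.58 ± 0.61, adjusted p = 0.176).

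**Figure D5:**
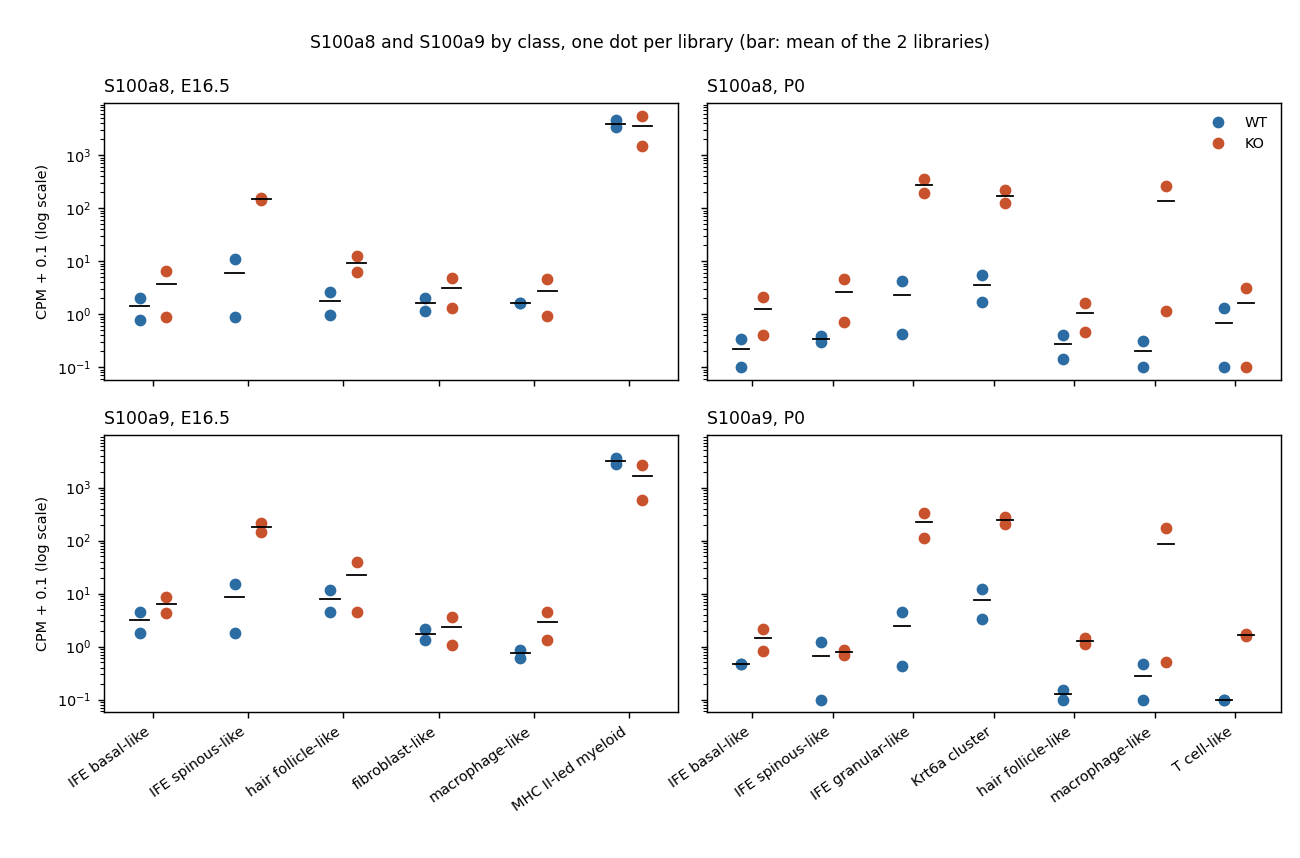
S100a8 and S100a9 in each library by class at E16.5 and P0, as CPM plus 0.1 on a log axis. At P0 the KO points of granular-like cells and of the cluster led by Krt6a lie between 111 and 352 CPM, above the WT points, and at E16.5 the MHC II-led myeloid cluster is high in both genotypes.

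At E16.5 the same pair in spinous-like cells rested on different cells in the 2 KO libraries. S100a8 read 11.1 and 0.79 CPM in WT and 144 and 155 CPM in KO (4.80 ± 0.76, adjusted p = 0.0455, where 1.18% of genes were called), and S100a9 14.99 and 1.71 CPM against 144.7 and 215 CPM (4.54, adjusted p = 0.0546). In KO1 1 cell with neutrophil markers held 717 of the 745 UMIs of the pair, while in KO2 9 cells, none with 3 neutrophil markers, held 590 of 623. The neutrophil list summed to 65.5 CPM in differentiated-like cells of KO1, 2.34 CPM in KO2 and 12.9 and 0.715 CPM in WT1 and WT2. With granular-like cells included S100a8 was at 4.83 ± 1.33 (adjusted p = 0.157), and without cells with neutrophil markers at 5.87 ± 2.11 (adjusted p = 0.272).

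Whether the step from basal to differentiated-like cells changed in the KO was tested by itself. At E14.5 edgeR called 0 of 10 members (1 at an unadjusted p under 0.05, 0 by DESeq2), where 1.0% of genes were called. At E16.5 S100a8 was called, with a stage difference 3.49 ± 0.75 larger in KO (adjusted p = 0.0425, 1 of 10 members against 0.649% of genes), and the call was lost without WT1, WT2 or KO1. At P0 S100a13 was called, 1.34 ± 0.27 larger (adjusted p = 0.00209, 1 of 10 against 11.4%), and without KO1 the value was 0.55 (adjusted p = 0.402). In KO1 and KO2 S100a13 read 72.1 and 58.0 CPM in basal-like cells at P0.

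Outside the IFE, hair follicle-like cells at P0 had 3 of 10 members called, where 30.9% of genes were called. S100a14 rose from 420 and 450 CPM to 590 and 577 CPM (0.53 ± 0.11, adjusted p = 0.00117), a call kept without each library, and S100a16 from 184 and 153 CPM to 209 and 215 CPM (0.44 ± 0.12, adjusted p = 0.0127). S100a8 was called at 0.301 and 0.0439 CPM against 0.357 and 1.52 CPM (2.54 ± 0.87, adjusted p = 0.0418), from 6 and 1 UMIs in WT and 11 and 45 in KO. Mean S100a8 also read higher in KO in inner root sheath-like (0.35 and 1.32 CPM), upper hair follicle-like (0 and 1.10 CPM) and basal-like cells (0.12 and 1.16 CPM). It read lower in KO in melanocyte-like (13.5 and 7.38 CPM) and sebaceous-like cells (4.29 and 1.79 CPM). S100a16 lost its call without WT2, KO1 or KO2, and S100a8 without WT2 or KO2. Mean S100a14 at P0 was also higher in KO in T cell-like (92.0 and 144.9 CPM), macrophage-like (82.6 and 120.9 CPM) and melanocyte-like cells (184.8 and 267.4 CPM). It was lower in KO in the cluster led by Krt6a (940 and 681.5 CPM) and spinous-like cells (846 and 814 CPM). The part of a shift over all classes in the hair follicle-like result was not tested. In fibroblast-like cells edgeR called 0 of 10 members at E14.5 (3 at an unadjusted p under 0.05, 0 by DESeq2, where 3.6% of genes were called). At E16.5 it was again 0 of 10 (1 at an unadjusted p under 0.05, 1 by DESeq2, where 1.34% of genes were called). That 1 was S100a14, at 17.6 and 19.2 CPM in WT and 7.50 and 5.73 CPM in KO (-1.47, adjusted p = 0.0604 in edgeR), a level far under that of keratinocytes. Other classes outside the epithelium read alike: mean S100a14 at E16.5 was 19.6 CPM in WT and 7.30 CPM in KO in dermal condensate-like cells, 18.8 and 8.07 CPM in pericyte-like cells, 23.1 and 6.93 CPM in muscle-like cells and 37.4 and 6.72 CPM in macrophage-like cells. Over whole libraries S100a14 was at 187 and 292 CPM in WT and 98.0 and 70.6 CPM in KO, and its part in the fibroblast-like level was not tested.

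The partners and relatives of the S100 genes were read in the same fits. The fused-type S100 genes, whose long proteins carry an S100 domain at one end, are the filaggrin family of the granular layer. Flg, Flg2, Hrnr and Rptn are among the markers that named the granular-like clusters, so their step from basal-like cells in WT is no result. In KO differentiated-like cells 3 of 5 were lower and none higher (median -4.20), where 29.6% of genes were called: Hrnr (-6.40), Flg (-4.20) and Flg2, with 323 and 342 UMIs in WT and 0 and 1 in KO. The class held fewer granular-like cells in KO than in WT, as given above. Within granular-like cells 3 of 5 were also lower, where 3.19% of genes were called: Hrnr (-5.01), Flg (-2.98) and Flg2. S100a1, one of 2 other S100 genes measured in differentiated-like cells, rose by 1.97 (adjusted p = 0.00482).

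Of the 15 annexins and other S100 partners in P0 basal-like cells, 3 were higher and 7 lower in KO, where 36.7% of all genes were called, with Ahnak (-2.58), Anxa8 (-1.60) and Anxa1 (-1.51) the largest. In differentiated-like cells 4 were higher and 4 lower, where 29.6% of genes were called, led by Ahnak (-2.48), Anxa6 (2.13) and Ezr (-1.22). Ahnak encodes a very large membrane scaffold that binds S100A10 with annexin A2. Of 6 S100 receptors measured in basal-like cells, Bsg was higher (0.35) and Ager (-1.16) and Erbb2 (-0.46) lower, 3 of 6 where 36.7% of genes were called. The alarmin and wound list in P0 differentiated-like cells had 5 of 18 genes higher and none lower (median 1.42), a share near the 29.6% of all genes called there, with Sprr2b (4.23), Sprr2a3 (4.11) and Sprr2a1 (3.64) the largest. In basal-like cells it had 2 of 11 higher and 4 lower, where 36.7% of genes were called, with Sprr1a (-2.83), Krt16 (-2.76) and Il1rn (-1.69) the largest. The dissociation stress list had 4 of 16 genes higher and 4 lower in basal-like cells, where 36.7% of genes were called, and 3 higher and 1 lower in differentiated-like cells, under the 29.6% of all genes called there. In hair follicle-like cells 9 were higher, where 30.9% of genes were called.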

How the data were processed

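The deposited values are raw counts of UMIs for called cells, made by the authors with Cell Ranger (version 1.3.1 per the labels) on the mm10 build and not normalized. The limits of the methods were applied to each barcode: a gene number of 600 to 4800 in embryonic libraries or 900 to 7700 in newborn ones, and no more than 10% of UMIs from mitochondria. Each age was integrated over its libraries with Seurat 5.3.0 and its canonical correlation method (R 4.3.3, 3000 variable genes that held no S100 gene, 30 components, 20 neighbours), then clustered at Louvain resolution 1. Names came from marker lists, with score limits set after the scores had been seen. Doublets were kept, and removed in an alternative (the highest 5% of Scrublet scores, scanpy 1.11.5).

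UMI counts were summed per library and class (at least 20 cells) and tested with edgeR 4.0.16 (quasi-likelihood, TMM, filterByExpr, adjusted p under 0.05). Basal-like, spinous-like and differentiated-like cells had 1 fit of 6 age-by-genotype groups, with the library as a block between stages. Other classes were fitted over the libraries with enough cells: fibroblast-like cells in embryonic ones and the cluster led by Krt6a in those of P0 alone. Hair follicle-like cells had libraries of E16.5 and P0, and granular-like cells those of P0 and WT at E16.5. DESeq2 1.42.0 and other settings were alternatives. Granular-like cells, the cluster led by Krt6a, spinous-like cells alone and the removal of cells with neutrophil markers were added after seeing the data. The v1 library had no replicate and was not tested. Same-numbered libraries deviated from their group means with correlations from -0.2 to 0.06, so the numbers were not taken as pairs. In simulated P0 basal-like counts, 71.6% of 95 genes changed by 1 on the log2 scale and 95.9% of 98 changed by 2 were recovered among 12250 genes, with 4.71% of calls false. The simulation gave every gene the same set spread and changed few genes, where 36.7% of genes were called in the data. These shares therefore do not measure the power or error of the member tests. The members and lists were chosen with earlier results of these data known. All members are named, and from other lists the 3 largest called changes.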

Additional observations from a re-analysis of the deposited data

Results flagged for a closer look

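Differences between the genotypes in the step from basal-like to differentiated-like cells were singled out because the difference itself passed edgeR's test. For S100a8 at E16.5 the stage difference was 3.49 larger in KO than in WT (log2, adjusted p = 0.0425, 2 libraries per group), with differentiated-like levels of 140 and 153 CPM in KO1 and KO2 and 10.3 and 0.715 CPM in WT1 and WT2. In spinous-like cells of KO1, 717 of the 745 UMIs of S100a8 and S100a9 lay in 1 cell with neutrophil markers. The call was lost without WT1, WT2 or KO1 (adjusted p up to 0.203), with DESeq2, without integration, at resolution 0.5, with doublets removed and with the libraries of that age alone. Without cells carrying neutrophil markers, chosen after seeing the data, it was 4.31 ± 0.66 (adjusted p = 0.0012). That removal took out the KO1 cell named above, so the value rested mostly on KO2. Under the same removal KO against WT in differentiated-like cells was not called for S100a8. For S100a13 at P0 the stage difference was 1.34 larger in KO (adjusted p = 0.00209), with differentiated-like levels of 40.1 and 12.9 CPM in KO and 7.74 and 8.12 CPM in WT, and it was 0.55 without KO1 (adjusted p = 0.402) and missed the threshold with DESeq2 (adjusted p = 0.0568). Groups of 2 libraries were too small to look for a library far from the others.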

How the results depend on the processing

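None of the member differences named in the text and refitted reversed its direction under the alternatives run for it, and RLE normalization left the number of members called within 1.5 times of the reported one in each comparison. Counts of members called (of 10, 8 in granular-like cells and the cluster led by Krt6a) moved as follows, and the cause was not tested. For KO against WT in basal-like cells at E16.5 the count went from 0 to 1, S100a6, with DESeq2, with doublets removed, without the low count filter, with the libraries of that age alone, with the replicate block and at resolution 0.5, at differences of 1.36 to 1.59. At P0 the basal-like count went from 2 to 7 without the filter, to 4 with doublets removed and to 1 with DESeq2, and the KO effect between P0 and E16.5 from 0 to 2 without the filter and to 1 with doublets removed or the compared ages alone. WT P0 against E16.5 in basal-like cells went from 2 to 4 without the filter, without integration and at resolution 0.5, and to 5 with doublets removed. In differentiated-like cells KO against WT went at E14.5 from 0 to 2 without the filter and to 3 with the libraries of that age alone, at E16.5 from 1 to 4 without the filter, to 2 with DESeq2 and to 0 without integration or at a 5% mitochondrial limit, and at P0 from 3 to 1 without integration and without cells with neutrophil markers, where S100a8 had an adjusted p of 0.07 and S100a9 of 0.0928. There the KO effect between ages went from 0 to 1 without the filter and in spinous-like cells alone, and WT P0 against E16.5 from 2 to 6 without the filter. Hair follicle-like cells went from 3 to 6 without integration. Fibroblast-like cells went from 0 to 4 at E14.5 without the filter and at E16.5 to 2 without the filter and to 1, S100a14, with DESeq2, doublets removed, no integration, resolution 0.5, the replicate block or that age alone. For the KO effect on the stage difference the count at E14.5 went from 0 to 2 without the filter and to 1 with that age alone, at E16.5 from 1 to 0 with DESeq2, without integration, at resolution 0.5 and with doublets removed and to 2 without the filter and in spinous-like cells, and at P0 from 1 to 0 with DESeq2, to 4 without the filter, to 3 in spinous-like cells and to 2 at resolution 0.5 and without cells with neutrophil markers.

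The replicate number as a block, although the numbers did not pair the libraries, moved the count in basal-like cells from 0 to 1 at E16.5, from 2 to 4 at P0 and from 0 to 1 for the KO effect between these ages. In differentiated-like cells the block moved it from 1 to 0 at E16.5 and from 3 to 1 at P0.

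With each library left out in turn the number of members called for KO against WT ranged from 0 to 0 in basal-like cells at E14.5 and E16.5 and from 1 to 3 at P0, and in differentiated-like cells from 0 to 0 at E14.5 and E16.5 and from 0 to 3 at P0. It ranged from 0 to 1 for the KO effect between ages in either stage, from 1 to 3 in hair follicle-like cells, from 0 to 1 in fibroblast-like cells at E14.5, from 0 to 0 there at E16.5, from 0 to 2 in granular-like cells and from 3 to 3 in the cluster led by Krt6a. For WT ages it ranged from 5 to 7 and from 2 to 4 in basal-like cells and from 1 to 5 and from 0 to 1 in differentiated-like cells. For the WT stage difference it ranged from 2 to 2 at E14.5, 4 to 4 at E16.5 and 4 to 6 at P0, and for the KO effect on it from 0 to 0, 0 to 1 and 1 to 3. A fit that left 1 library in a group assumes that it varies like the other groups. The cluster led by Krt6a was fitted at P0 alone, where only the other genotype was left to set the spread. Its count without a library is therefore no check on its calls.

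Counts over all genes moved too. For KO against WT in basal-like cells, 1 gene at E14.5 became 17 without the low count filter and 18 with that age alone, and 53 at E16.5 became 219 and 197. In differentiated-like cells 157 at E14.5 became 645 and 1480 under the same settings, 280 at E16.5 became 780 without the filter and 131 in spinous-like cells, and 3320 at P0 became 1438 with that age alone. For fibroblast-like cells 512 became 1551 and 191 became 799 without the filter. In granular-like cells 214 became 755 without the filter and ranged from 0 to 242 without 1 library, and in the cluster led by Krt6a 1581 became 841 with DESeq2. With 2 libraries per group, few granular-like KO cells and members at a few UMIs per class, small differences in S100a3, S100a4, S100a8 and S100a9 could have been missed. The smallest difference that can be seen at this depth was not tested. Scrublet and marker naming used these same counts. Shares of cells with a UMI rested on depth: without thinning S100a8 was in 24.9% and S100a9 in 33.8% of KO cells of the cluster led by Krt6a.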
